A study of Mus musculus with 4 samples.

Results

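The 10 genes followed here encode proteins of elastic fibres and their microfibrils: elastin (Eln), fibrillin-1 (Fbn1), the fibulins Fbln1, Fbln2, Fbln5, Efemp1 and Efemp2, and the microfibril-associated proteins Mfap2, Mfap4 and Mfap5. They were chosen by function, as every probe set whose annotated symbol is exactly one of these names. The choice was made with earlier results of these data known, so the counts below describe the members and are not an independent test. Of the 10, 8 had at least 1 probe set, 15 probe sets in all, out of 18193 genes with a single symbol in the probe annotation. Fbn1 and Efemp2 had no probe set under their symbol in the annotation used and were not analysed here.

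An elastic fibre has a core of elastin, which is secreted as soluble tropoelastin and crosslinked by lysyl oxidases, and a mantle of microfibrils made mainly of fibrillin. Fibulins help to bring elastin, crosslinking enzymes and microfibrils together, and the small microfibril-associated proteins bind fibrillin. In mammary tissue these proteins are made mostly by stromal fibroblasts and by cells of the vessel wall, and microfibrils also bind latent TGF-beta complexes.

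The study compared mammary tumors of St6gal1-null and wild-type littermates, all female C57BL/6 mice carrying PyV-mT, the polyoma virus middle T oncogene. St6gal1 is the enzyme that caps N-glycans with alpha2-6-linked sialic acid. Tumors were taken at 110 days of age and 14 days after onset, and each of 4 Affymetrix whole-genome mouse arrays held RNA of a pool of 3 tumors from 3 animals. A null and a wild-type pool formed set 1, and another such pair formed set 2. The promoter that drives the transgene and the part of St6gal1 that the null allele lacks are not given in the sources used here. The labels describe whole tumors, so stroma, vessels and fat are in the RNA together with carcinoma cells.

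Values are MAS5 signal intensities on a linear scale, whose trimmed mean was 2500.01 on each array. Differences are log2 ratios of null over wild type after adding 44 to each intensity. The highest of 15 Y-linked probe sets, 585.1, served as the unspecific level in these female animals, and a signal at or below it was not told from background. Of St6gal1 itself, the brighter probe set read 2337 and 3642 in the null pools of sets 1 and 2, and 2330 and 2796 in the wild-type pools. It showed no loss (log2 0.19 ± 0.16 (SE), limma adjusted p = 0.563), so every direction given here rests on the labels. The luminal keratin Krt8 read from 101213 to 150715 over the 4 arrays and Epcam, an epithelial surface protein, from 21835 to 52347, so markers of the labelled mammary epithelium were present. The Gapdh 3'/5' signal ratio, which rises as RNA is degraded, was 0.873 and 0.869 in the null and wild-type pools of set 1 and 2.13 and 1.57 in those of set 2.

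Elastic fibre genes were higher in the null pools. Of the 10 member probe sets bright enough to be tested, 8 rose and 0 fell past a limma adjusted p of 0.05, against 4.09% of all 22519 probe sets tested that rose and 3.27% that fell. Counted as genes by their brightest probe set, Eln, Fbln1, Fbln2, Efemp1, Mfap2 and Mfap5 rose, Fbln5 did not pass, and Mfap4 lay below the filter. Over all genes counted that way, 5.19% rose and 3.58% fell. The median log2 ratio of the 7 tested members was 0.98, while it was -0.01 over all genes tested. In whole tumors, more cells that make these proteins and more RNA per such cell cannot be told apart.

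**Figure D1:**
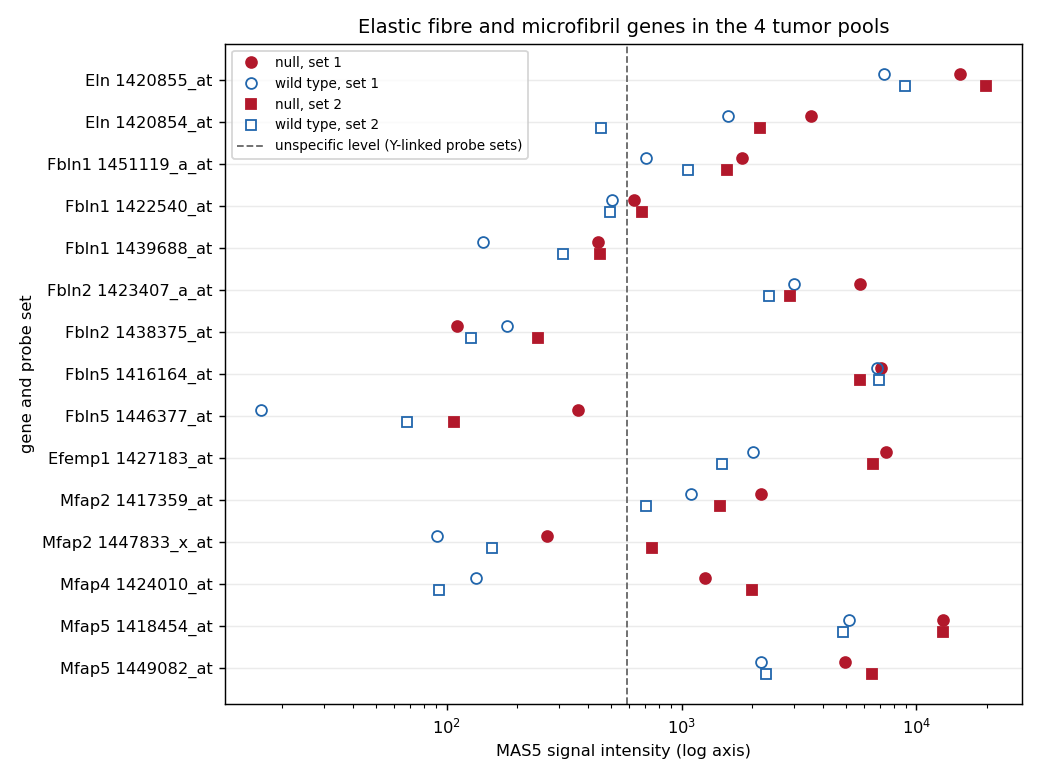
MAS5 signal intensity of the 15 probe sets of the 8 measured members, on a log axis and with the brightest probe set of a gene listed first, in the 4 pools (filled red, null; open blue, wild type; circles, set 1; squares, set 2); the dashed line marks the unspecific level of 585.1. The null pools lie to the right of both wild-type pools for both probe sets of Eln and of Mfap5, for Efemp1 and for Mfap4, while the 4 pools lie together for the brighter probe set of Fbln5.

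Elastin, the core protein, was measured by 2 probe sets, both of which rose. The brighter one read 15285 in null 1, 7287 in wild type 1, 19811 in null 2 and 8944 in wild type 2. Both null pools stood above both wild-type pools, and the ratio was nearly the same in the 2 sets, log2 1.06 in set 1 and 1.14 in set 2. The fitted difference was 2.15-fold (log2 1.10 ± 0.09 (SE, n = 2 pools per genotype), limma adjusted p = 1.62e-06). The dimmer Eln probe set read 3559, 1572, 2158 and 456 in the same order of pools. Its groups did not overlap either, and it rose 3.13-fold (log2 1.65 ± 0.24, limma adjusted p = 5.44e-04). Its ratio was 1.16 in set 1 and 2.14 in set 2. The wild-type pool of set 2 lay below the unspecific level, so the exact size of this fold rests on a signal not told from background. With 1 array left out, and therefore without the set term, its log2 ratio was 0.80 without wild type 2 and 2.49 without wild type 1. These 2 values also carry the difference of this probe set between sets, given below.

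The measured fibulins ranged from no call to the largest fold among the tested members. Efemp1, also called fibulin-3, is a short fibulin of elastic tissues and fascia. It read 7453 in null 1 against 2019 in wild type 1, and 6536 in null 2 against 1484 in wild type 2. The null pools lay far above both wild-type pools in each set, with log2 ratios of 1.86 and 2.11. The fit gave a 3.96-fold rise, with a 95% interval from 3.23-fold to 4.85-fold (log2 1.98 ± 0.14, limma adjusted p = 3.36e-07).

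Fbln5, a short fibulin that binds tropoelastin and is needed for elastic fibre assembly, read 7040 in null 1 and 6825 in wild type 1. In set 2 its signal was 5733 in null 2 against 6947 in wild type 2. The null pools therefore lay on both sides of the wild-type pools, with log2 ratios of 0.04 and -0.28. The difference was -0.12 ± 0.11 (limma adjusted p = 0.621), and its 95% interval ran from 0.784-fold to 1.09-fold. All 4 pools were well above the unspecific level. The other Fbln5 probe set read from 16.3 to 363 and lay within the unspecific level on each array, so it could not show a difference. Whether the change in Fbln5 differs from that in Efemp1 was not tested.

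Fbln1 and Fbln2, the longer fibulins, are found in basement membranes, around vessels and on elastic fibres. The brightest Fbln1 probe set read 1809 in null 1, 703 in wild type 1, 1563 in null 2 and 1065 in wild type 2. Both null pools were above both wild-type pools, but the log2 ratio was 1.31 in set 1 and 0.54 in set 2. The rise of 1.90-fold passed narrowly (log2 0.92 ± 0.26, limma adjusted p = 0.0420), and without the filter on dim probe sets its adjusted p was 0.0788. A second Fbln1 probe set read 627, 508, 680 and 498 and had a log2 ratio of 0.35 ± 0.34 (limma adjusted p = 0.625), with both wild-type pools below the unspecific level. The third read from 143 to 450, within the unspecific level throughout.

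Fbln2 read 5776 in null 1 and 3000 in wild type 1, and 2909 in null 2 and 2347 in wild type 2, on its brighter probe set. It was higher in the null pool of each set, yet null 2 lay below wild type 1, so the groups overlapped. The log2 ratios were 0.94 and 0.30, and the fitted rise was 1.54-fold (log2 0.62 ± 0.16, limma adjusted p = 0.0290). This is the smallest rise among the members that passed. With null 1 left out, and therefore without the set term, its log2 ratio dropped to 0.13. The other Fbln2 probe set read 111, 181, 246 and 127, all within the unspecific level.

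Promoter sequences of 3 fibulins are shown because these genes spanned the range of responses, from Efemp1, which rose most among the tested members, through Fbln2 to Fbln5, which did not pass. Each is the 250 bases before the annotated start, on the gene's own strand and 5′ to 3′, taken from RefSeq with the mouse build GRCm38.p6, and from the most upstream start where a gene has several. Capitals mark GC boxes (GGGCGG), AP-1 letters (TGANTCA) and Smad element letters (CAGACA), searched on both strands. The Efemp1 window is chr11:28852955-28853204 on the plus strand, that of Fbln2 is chr6:91212514-91212763 on the plus strand, and that of Fbln5 is chr12:101819120-101819369 on the minus strand.
Efemp1: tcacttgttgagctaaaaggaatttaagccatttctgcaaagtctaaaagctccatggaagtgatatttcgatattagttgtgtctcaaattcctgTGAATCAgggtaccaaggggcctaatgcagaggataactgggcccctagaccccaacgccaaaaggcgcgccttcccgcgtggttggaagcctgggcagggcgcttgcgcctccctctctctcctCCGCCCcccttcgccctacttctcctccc
Fbln2: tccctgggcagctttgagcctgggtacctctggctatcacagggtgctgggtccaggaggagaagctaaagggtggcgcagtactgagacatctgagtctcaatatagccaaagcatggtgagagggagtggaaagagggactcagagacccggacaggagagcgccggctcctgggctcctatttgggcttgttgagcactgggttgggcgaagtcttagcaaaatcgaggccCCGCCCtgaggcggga
Fbln5: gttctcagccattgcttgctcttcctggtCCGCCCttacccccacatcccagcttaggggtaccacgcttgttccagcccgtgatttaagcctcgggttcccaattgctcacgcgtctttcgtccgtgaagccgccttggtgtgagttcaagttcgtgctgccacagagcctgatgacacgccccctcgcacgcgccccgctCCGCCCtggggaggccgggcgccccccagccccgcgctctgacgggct

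Of the members, 7 had a promoter entry, Fbn1, Fbln1, Fbln2, Fbln5, Efemp1, Efemp2 and Mfap2, and the most upstream window of each was searched. GC box letters were in 5 of 7 windows, Fbln5 included, and in 32.7% of all 32851 windows of the same length. The shares over all windows count every annotated start, while each member enters with its most upstream start only. Further starts differed: those of Fbln1 and Mfap2 held GC box letters, and that of Fbln5 held Smad element letters and no GC box. AP-1 letters were in 1 of 7, that of Efemp1, and in 6.75% of all windows. Smad element letters were in 2 of 7, Fbln1 and Mfap2, and in 17.1% of all. The E-box (CANNTG) was in 5 of 7 and in 66.2% of all, and TATAAA in 0 of 7 and in 12.4% of all. No matches to different motifs overlapped in the most upstream windows of the members. The GC content was 53.6% for Efemp1, 58.8% for Fbln2 and 65.2% for Fbln5, where the median of all windows was 52.4%. These matches describe the letters only and show no binding.

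Among the microfibril-associated proteins, Mfap5 (MAGP-2), a small glycoprotein that binds fibrillin and Notch ligands, rose on both of its probe sets. The brighter read 12983 and 12998 in null 1 and null 2, and 5150 and 4881 in wild type 1 and wild type 2. The 2 pools of each genotype lay close together and the groups far apart. The rise was 2.58-fold (log2 1.37 ± 0.10, limma adjusted p = 3.92e-07), with log2 1.33 in set 1 and 1.40 in set 2. The dimmer Mfap5 probe set read 4975 and 6488 in the null and 2170 and 2294 in the wild-type pools. It rose 2.52-fold (log2 1.33 ± 0.14, limma adjusted p = 1.89e-05), so both probe sets gave nearly the same fold.

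Mfap2 (MAGP-1), the other small fibrillin-binding glycoprotein, read 2175 in null 1 against 1100 in wild type 1, and 1459 in null 2 against 705 in wild type 2. The groups did not overlap, and the log2 ratios of 0.96 and 1.01 were alike. The rise was 1.97-fold (log2 0.98 ± 0.23, limma adjusted p = 0.0173). A second Mfap2 probe set read 268, 90.8, 753 and 156, above the unspecific level in null 2 alone. It lay below the filter.

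Mfap4, a fibrinogen-like protein that binds elastin and fibrillin and is abundant around vessels and in dermis, read 1255 in null 1 and 1996 in null 2, but 133 in wild type 1 and 92.6 in wild type 2. Both null pools were above the unspecific level and both wild-type pools below it, so only a bound can be given. The geometric mean of the null pools was 2.71-fold the unspecific level, which bounds the ratio of null over wild-type signal from below. The mean of its log2 values over the 4 arrays lay below the median of all probe sets, so the probe set was not among those tested. No fold or test is given against the wild-type signals, which were not told from background.

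**Figure D2:**
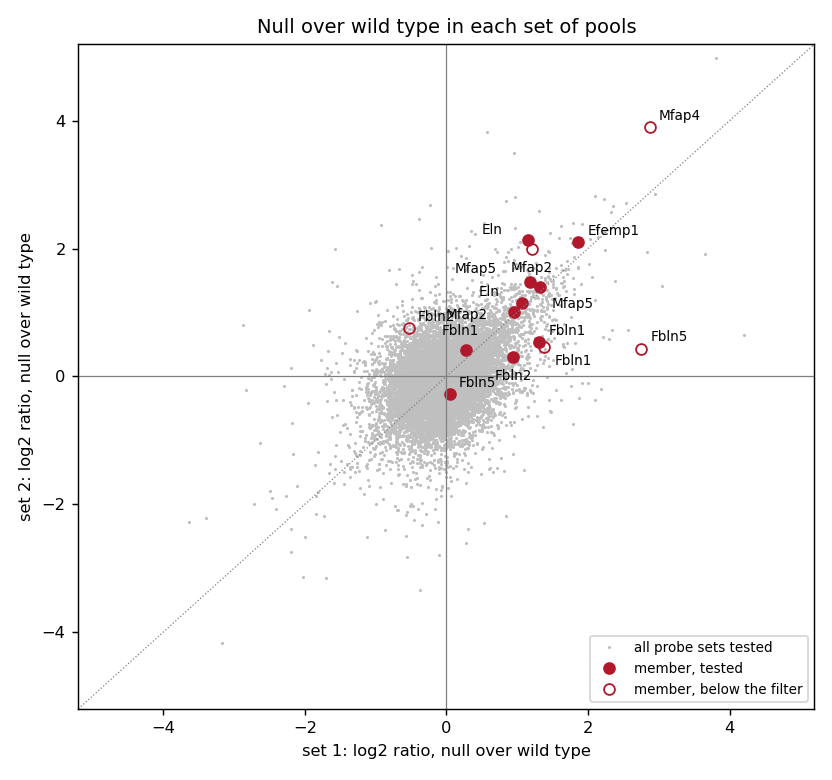
Log2 ratio of null over wild type in set 1 (x axis) and set 2 (y axis) for all 22519 probe sets tested (grey) and for the member probe sets (filled red, tested; open red, below the filter), with the dotted line at equal ratios. Tested probe sets of Eln, Efemp1, Mfap2, Mfap5, Fbln1 and Fbln2 lie in the upper right, and the brighter probe set of Fbln5 lies near the origin.

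The 2 sets gave the same direction for 9 of the 10 member probe sets tested, the exception being Fbln5. The share of all probe sets with the same direction was not computed, so how unusual this count is cannot be said. Eln, Fbln1 and Mfap5 each enter these counts with 2 probe sets. In 8 of the 10 both null pools were above both wild-type pools, which held for 15.1% of all probe sets tested. A ratio of at least 2-fold in each set was seen for 5 of the 10, namely both probe sets of Eln and Mfap5 and that of Efemp1, and for 0.795% of all probe sets tested. Agreement between the sets was close for the brighter probe sets of Mfap5, Eln and Mfap2, whose log2 ratios differed by 0.08, 0.08 and 0.05 between sets. It was looser for Fbln1 and Fbln2, at 0.78 and 0.63.

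**Figure D3:**
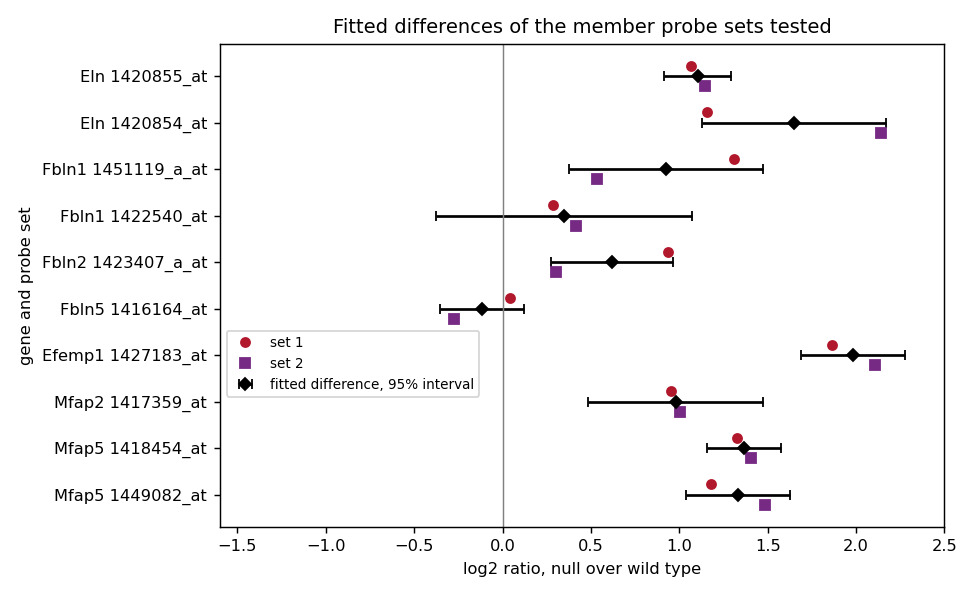
Fitted log2 ratio of null over wild type with its 95% interval (diamonds) and the ratio in each set alone (red circles, set 1; purple squares, set 2) for the 10 member probe sets tested. The intervals of 8 probe sets lie above 0, and those of Fbln5 and of the dimmer tested Fbln1 probe set include 0.

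Between the sets, 3 of 10 member probe sets passed the threshold, 1 higher and 2 lower in set 2, a share near that of all probe sets tested, of which 11.1% were higher and 12.4% lower. In set 2 the brighter Eln probe set was higher than in set 1 by 0.33 ± 0.09 on the log2 scale (limma adjusted p = 0.0141), while the dimmer Eln probe set fell by 1.20 ± 0.24 (limma adjusted p = 0.00268). The 2 probe sets of this gene thus moved in opposite directions between sets. The dimmer one read 456 in wild type 2, below the unspecific level, so the size of its fall rests on a signal not told from background. In the null pools alone, both above that level, its log2 difference was -0.71. Fbln2 fell by 0.66 ± 0.16 in set 2 (limma adjusted p = 0.00809), and all 4 of its values separated by set. The other 7 did not pass, among them Mfap5 at -0.04 ± 0.10 and Efemp1 at -0.31 ± 0.14. The 3'/5' ratios of Gapdh also differed between sets, as given above, and their part in these differences was not tested.

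Of 46 tested genes that act with elastic fibres, 9 passed the threshold, 6 higher and 3 lower in the null pools, where 5.19% of all genes tested were higher and 3.58% lower. Of 17 relatives of microfibril proteins, latent TGF-beta binding proteins and emilins, 12 were tested, 2 rose and 0 fell, with a median log2 ratio of 0.04. Emilin2, a glycoprotein of the elastin and microfibril interface, had signals of 1784 and 2423 in the null against 967 and 923 in the wild-type pools and rose 2.15-fold (log2 1.10 ± 0.23, limma adjusted p = 0.00723). Mfap3 rose by log2 0.34 ± 0.10 (limma adjusted p = 0.0479), and its adjusted p was 0.0744 after quantile normalization, 0.0707 after cyclic loess and 0.0817 without the filter. Fbn2, the second fibrillin, read 3342 and 1397 in the null and 2822 and 1319 in the wild-type pools. Its difference was 0.16 ± 0.18 (limma adjusted p = 0.683). Ltbp4, which works with Fbln5 in elastin assembly, was at 0.67 ± 0.25 (limma adjusted p = 0.127), and Ltbp3 was at -0.04 ± 0.09.

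The lysyl oxidases Lox and Loxl1, which crosslink elastin and collagen, rose. Of 19 crosslinking and assembly genes, 13 were tested, 2 rose and 2 fell, with a median of -0.07. Loxl1, the lysyl oxidase known for its role in elastin, read 14757 and 17750 in the null and 4225 and 6051 in the wild-type pools. It rose 3.18-fold (log2 1.67 ± 0.10, limma adjusted p = 7.92e-08). Lox, the founding lysyl oxidase, read 7036 and 8974 against 3173 and 3540 and rose 2.35-fold (log2 1.23 ± 0.11, limma adjusted p = 6.64e-06). Loxl3 was at -0.06 ± 0.13. The genes that fell were Adamtsl1, an ADAMTS-like matrix protein, by 1.12 ± 0.28 on the log2 scale (limma adjusted p = 0.0251), and Papln, encoding papilin of basement membranes, by 0.62 ± 0.17 (limma adjusted p = 0.0388). Adamtsl1 read 414 in null 2, below the unspecific level, so the size of its fall rests on a signal not told from background. With null 2 left out, and therefore without the set term, its log2 ratio was -0.58. The adjusted p of Adamtsl1 was 0.0697 without the filter, and that of Papln 0.0511 after quantile normalization and 0.0577 after cyclic loess.

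Of 11 enzymes able to degrade elastin, 8 were tested, 2 rose and 0 fell, with a median of 0.12. Ctsk, the collagen- and elastin-cleaving cathepsin K, rose 1.74-fold (log2 0.80 ± 0.14, limma adjusted p = 0.00247), and Mmp14, a membrane-bound metalloprotease, rose 1.38-fold (log2 0.47 ± 0.09, limma adjusted p = 0.00368). Mmp12, macrophage elastase, was at -0.33 ± 0.28. Of 13 receptors of elastic fibre proteins, all tested, 0 rose and 1 fell, with a median of -0.07. It was the integrin chain Itga8, by 0.47 ± 0.09 (limma adjusted p = 0.00491). Itgav, the alpha chain of several receptors of fibrillin and fibulins, was at -0.12 ± 0.10.

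**Figure D4:**
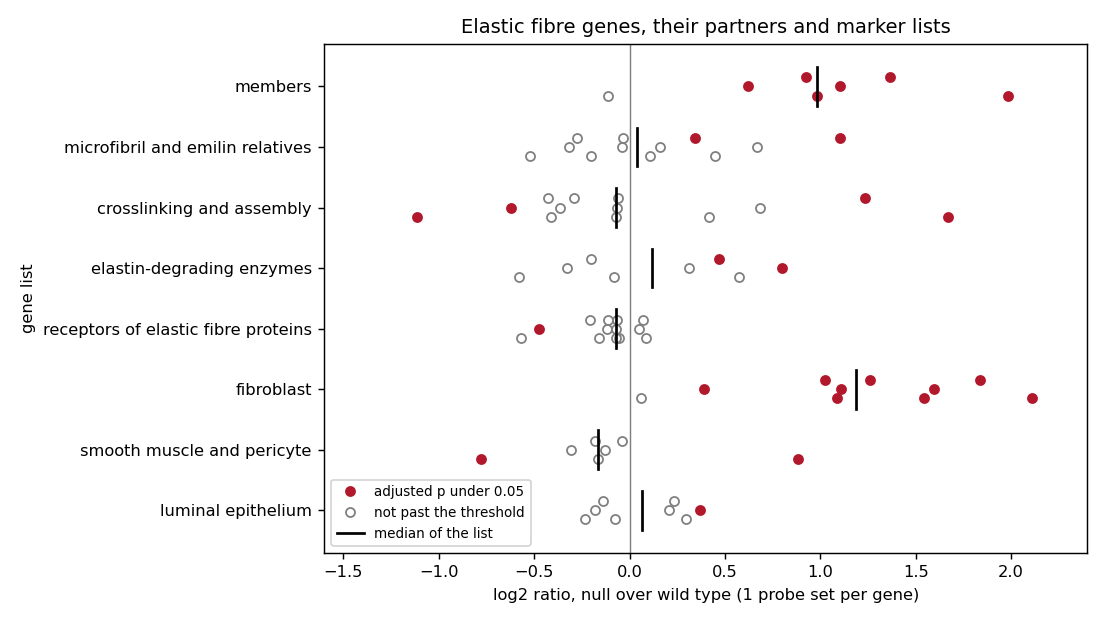
Log2 ratio of null over wild type, 1 probe set per gene, for the tested members, 4 lists of partner genes and 3 marker lists (filled red, limma adjusted p under 0.05; open grey, not past it; black bar, median). The medians are 0.98 for the members and 1.19 for fibroblast markers, and between -0.17 and 0.12 for the other lists drawn. Marker lists not drawn had medians of 1.41 for adipocyte, 0.99 for skeletal muscle and 0.71 for endothelium. The rest not drawn were at 0.15 for macrophage, -0.14 for skin, -0.24 for nerve sheath and -0.48 for basal and myoepithelial.

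Fibroblast markers moved with the members. Of 10 fibroblast markers 9 rose and 0 fell, with a median log2 ratio of 1.19, and none was at the unspecific level. Their summed intensity was 346100 and 399000 in the null and 169500 and 175800 in the wild-type pools. Most of each sum came from the collagen genes Col1a1, Col1a2 and Col3a1. Dcn rose 1.31-fold, and Pdpn, at log2 0.06 ± 0.10, was the marker that did not pass. Pdgfra and Pdgfrb, receptors that mark fibroblasts and pericytes, rose 2.16-fold and 2.12-fold. The summed intensity of the members, with 1 probe set, the brightest, for each of 8 genes, was 53780 and 53000 in the null and 26220 and 26470 in the wild-type pools. The part of fibroblast content in the rise of the elastic fibre genes was not tested.

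Smooth muscle cells and pericytes also make elastic fibres. Of 8 of their markers 7 were tested, 1 rose (Rgs5, 1.84-fold) and 1 fell (Myh11, by 0.78 on the log2 scale), with a median of -0.17. Their summed intensity was 127900 and 138900 in the null and 141600 and 143500 in the wild-type pools. Acta2, smooth muscle actin, made up most of each sum, at 72917 and 92012 in the null and 86649 and 99265 in the wild-type pools. Its log2 difference was -0.18 ± 0.09. The markers moved apart, so the sum and median give no direction for cells of the vessel wall. Which cells of the whole tumors gave these signals cannot be told. Of 6 endothelial markers tested 2 rose, with a median of 0.71, and of 5 adipocyte markers 4 rose, with a median of 1.41. Summed intensities were 12550 and 11600 against 7655 and 7806 for endothelium and 61000 and 53810 against 24710 and 22040 for fat. Of 6 skeletal muscle markers tested 3 rose (median 0.99), with summed intensities of 11810 and 10580 against 7345 and 7050. Of 6 basal and myoepithelial markers 3 fell (median -0.48), and of 6 macrophage markers 2 rose (median 0.15). Of 8 luminal epithelial markers 1 rose and 0 fell (median 0.07). Of 5 skin markers 3 were at or below the unspecific level on each array, among them Krt1, and the list showed 0 calls among the 2 tested. The part of these cell types was not tested.

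The chromosomes of the members, per RefSeq, were 2, 4, 5, 6, 11, 12, 15 and 19, and St6gal1 lies on chromosome 16, so no member shares its chromosome with the targeted gene.

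The calls rest on the set term and the intensity trend of the fit. Without either one, limma called 0 of the member probe sets, with 7 and 8 at an unadjusted p under 0.05. With 1 array left out the set term was dropped as well, and the count was 0 without null 1, null 2 or wild type 2 and 2 without wild type 1, while each of the 8 called probe sets stayed higher in the null pools.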

How the data were processed

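RNA of 4 tumor pools, 2 null and 2 wild type, was measured on 1-colour Affymetrix arrays. The authors deposited 1 linear signal intensity per probe set, made with MAS5 per the submitters' processing notes. Its version and the genome build of the probe annotation are not given in the sources used here. Of 45101 probe sets, 64 controls were left out.

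Intensities were turned into log2(value + 44), 44 being their 10th percentile, and the 22519 probe sets whose mean log2 value lay at or above the median were tested. The added 44 makes the log2 ratios of dim genes smaller. The fit was limma 3.58.1 (R 4.3.3), using lmFit and eBayes with an intensity trend. Its terms were set and genotype. P-values were adjusted by Benjamini-Hochberg across the whole tested table and called at 0.05. It leaves 1 residual degree of freedom, with 13.5 prior degrees of freedom. The series' design text pairs the pools within sets, and pools of a set deviated together (correlation 0.612). The number of arrays limits the precision. An exact permutation test that ignores the sets could not go below p = 0.333, and one within sets has fewer arrangements still. The fit was tested on simulated data, where it recovered 35.6% of 1.5-fold, 69.6% of 2-fold and 90% of 3-fold differences. A gene that was not called can therefore still differ.

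The members and the gene lists were chosen with earlier results of these data known. Every member probe set is named, and of each partner list the genes past the threshold; other list genes with values were named after their values were seen. The brightest probe set speaks for a gene in lists. Alternatives were quantile normalization, cyclic loess, pseudocounts, filters, no set term, no trend, each array left out, each set alone and the mean of a gene's probe sets.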

Additional observations from a re-analysis of the deposited data

Results flagged for a closer look

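For 2 member probe sets the pools of the 2 sets moved in opposite directions, a difference that was not tested. The dimmer Fbln2 probe set had a log2 ratio of -0.53 in set 1 and 0.76 in set 2, and each of its signals lay within the unspecific level. The brighter Fbln5 probe set had 0.04 in set 1 and -0.28 in set 2, at signals well above that level.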

How the results depend on the processing

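The log2 ratios of the 10 member probe sets tested kept their direction under both other normalizations, both other pseudocounts, no filter, no set term and no trend, and the calls held under the normalizations and pseudocounts. Of the calls, 1 was lost without the filter, that of Fbln1. The count stayed at 8 there because the Mfap4 probe set entered, whose wild-type signals were not told from background. Testing fewer probe sets, with the filter at the 75th percentile, left 5 called of 6 member probe sets tested and 2 of the crosslinking genes. Without the replicate block of set, or without the intensity trend, limma called 0 of all probe sets (1261 and 3512 at an unadjusted p under 0.05), hence 0 in each list of partner genes; without the trend 0 member probe sets differed between sets. With 1 array left out, and no set term, the lone array of a genotype is assumed to vary like the others: between 5 and 26 probe sets were called in all, between 0 and 2 among the members and 0 in each partner list. The ratio of Fbln5 ranged from -0.26 to 0.03 over the arrays left out, turning positive without null replicate 2. Among the relatives of microfibril proteins 1 gene was called after cyclic loess, without the filter and with the filter on mean intensity, the last chosen after seeing the data. Mfap3 was not called in these fits nor after quantile normalization, where the count of 2 includes another gene. The mean over all probe sets of a gene gave 1.38 for Eln, 1.29 for Mfap2 and 0.74 for Fbln5, the last through a probe set within the unspecific level. The dimmer Mfap2 probe set was above that level in null 2 alone, and the dimmer Eln probe set lay below it in wild type 2. The cause of these shifts was not tested.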
